A study of Mus musculus with 4 samples.

Results

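The comparison described here sets both ends of one cell sort against each other, the c-Kit+ NS-GFP high fraction, called c-Kit+ high, and the c-Kit- NS-GFP low fraction, called c-Kit- low. Both came from marrow of C57BL/6 background mice that carried a leukaemia made by introducing HoxA9 and Meis1 into marrow cells of an NS-GFP transgenic mouse. In that mouse a region of the nucleostemin (NS) promoter drives green fluorescent protein, so both groups share the HoxA9 and Meis1 leukaemia and the transgene and differ in c-Kit on the surface and in reporter level. The labels give neither the ages nor the number of mice, nor which region of the promoter was used. The series holds 4 arrays, 1 for each sorted fraction, and the 2 arrays of the ends are compared gene by gene, while c-Kit+ middle and c-Kit- middle show where along the sort a difference lies. With 1 array in each group there is no replicate check, no test and no error between samples, and the number of arrays limits the precision. Of 18193 genes on the array, 11278 were measured, meaning above the floor on at least 1 of the 2 arrays, and 6915 lay at the floor on both.

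Acute myeloid leukaemia is a hierarchy in which immature cells divide and give rise to cells that carry features of monocytes and granulocytes. HoxA9 and Meis1 are homeobox genes that hold myeloid progenitors in an immature, dividing state. The surface receptor c-Kit (gene Kit) binds stem cell factor and is lost as myeloid cells mature. The product of Gnl3, nucleostemin, is a GTPase of the nucleolus in dividing and stem cells that takes part in the assembly of the large ribosomal subunit.

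Signals are linear, in the arbitrary units of the authors' tables after quantile normalization, and a signal under 15.3, the 50th percentile of all probe sets, was set to that floor. At the ends the genes of the sort followed their labels. Kit was highest in c-Kit+ middle, however, and Gnl3 differed between the middle arrays, which share a reporter gate. The Kit signal was 479 in c-Kit+ high and a floor-level signal in c-Kit- low, with c-Kit+ middle at 690.2 and c-Kit- middle at 26.4, a difference of at least 31.3-fold, although its second probe set gave at least 1.81-fold. Gnl3 read 1299 in c-Kit+ high and 183 in c-Kit- low, with c-Kit+ middle at 1109 and c-Kit- middle at 584, a 7.09-fold difference. Hoxa9 was lower in c-Kit+ high, at 509.7 in c-Kit+ high and 1882 in c-Kit- low, and Meis1 was at the floor on every array; the labels do not say if these probe sets read the genes that were introduced. All 10 pan-leucocyte genes were above the floor on each of the 4 arrays, among them Ptprc, the CD45 antigen (1665 in c-Kit+ high and 5584 in c-Kit- low), and Spi1, the myeloid factor PU.1 (199 in c-Kit+ high and 701 in c-Kit- low).

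Over all genes, the lower side had the longer tail. At a size of at least 2-fold, 1813 genes were higher in c-Kit+ high (16.1% of those measured) and 1539 were lower (13.6%), 29.7% in either direction, and the median log2 ratio of all measured genes was 0.09. These shares of all measured genes are the background for every list count below. Past 8-fold there were 92 higher and 191 lower genes, and past 16-fold 14 higher and 77 lower. Of the 77, 32 are lower bounds because c-Kit+ high lay at the floor, and of the 14 higher genes 4 are bounds. With the authors' own scaling 42.5% of the genes past 2-fold were higher, against 54.1% here, and the median of all genes moved to -0.08, so which side holds more genes past 2-fold depends on the scaling. The Actb control probe sets at the 3' end were 4.70 times as bright as those at the 5' end in c-Kit+ high and 2.50 times in c-Kit- low, with c-Kit+ middle at 3.98 and c-Kit- middle at 3.28. For Gapdh it was 3.41 times in c-Kit+ high and 3.37 times in c-Kit- low. The control Lys gave 28.7 times in c-Kit+ high and 8.16 in c-Kit- low, with c-Kit+ middle at 20.7 and c-Kit- middle at 11.9. In c-Kit+ high and c-Kit- low, Phe gave 13.8 and 5.91, Dap 46.1 and 31.4, and Thr 18.3 and 18.7. Neither the cause of these control differences nor the part of RNA quality in the gene differences was tested.

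**Figure D1:**
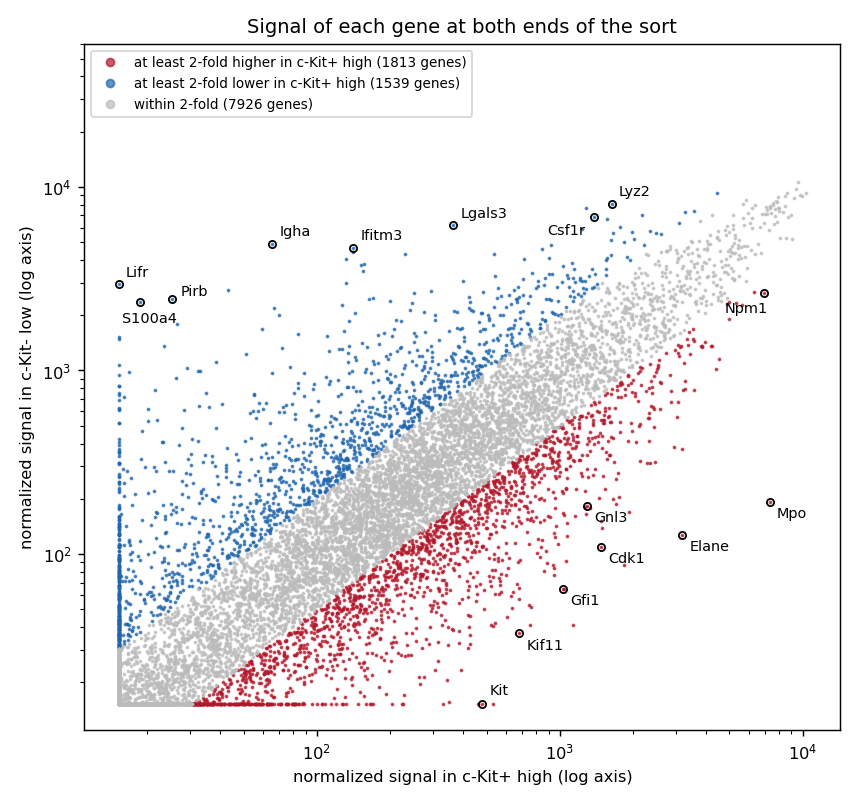
Normalized signal of each measured gene in c-Kit+ high (x, log axis) and c-Kit- low (y, log axis), 1 array each, with signals under 15.3 drawn at that floor. Red points are the 1813 genes higher there by 2-fold or more and blue points the 1539 lower by as much, which reach further from the grey band.

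Genes of mitosis had the highest medians of the 69 gene lists described. Of 40 measured genes of the kinetochore and spindle checkpoint, 35 were past 2-fold in favour of c-Kit+ high and none lower, with a median log2 ratio of 2.86 against 0.09 for all genes. Of 13 mitotic kinesins 11 were higher and none lower (median 2.68), as were 28 of 30 mitotic kinases, cyclins and subunits of the anaphase-promoting complex (median 2.44). Spc25, a subunit of the NDC80 complex that holds microtubules, read 760.4 in c-Kit+ high and 51.8 in c-Kit- low, with c-Kit+ middle at 443 and c-Kit- middle at 449. Kif18a, a kinesin that dampens chromosome movements at the spindle, read 265 in c-Kit+ high and 19.6 in c-Kit- low, with c-Kit+ middle at 161 and c-Kit- middle at 136. In both, the c-Kit- low array stands alone below the others, and the folds were 14.7-fold and 13.6-fold.

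The same shape held for regulators. Bub1, a checkpoint kinase, had 637 in c-Kit+ high and 50.7 in c-Kit- low, with c-Kit+ middle at 344 and c-Kit- middle at 305, a 12.5-fold difference that its second probe set gave as at least 6.35-fold. Cdc25c, the phosphatase that activates Cdk1, read 307 in c-Kit+ high and 23.4 in c-Kit- low, with c-Kit+ middle at 137 and c-Kit- middle at 205. Here both c-Kit- middle and c-Kit+ middle lie between the ends, with c-Kit- middle the higher of them. Aurkb, the Aurora kinase of chromosome passage and cytokinesis, was 11.5-fold higher (1064 in c-Kit+ high and 92.1 in c-Kit- low), Ska1, which couples kinetochores to shrinking microtubules, 13.3-fold (228 in c-Kit+ high and 17.1 in c-Kit- low; 2.54-fold by its second probe set), and Cip2a, an inhibitor of the phosphatase PP2A, 13.1-fold (532 in c-Kit+ high and 40.5 in c-Kit- low). The c-Kit- low signals of Ska1 and Kif18a are close to the floor, which limits how large their folds can be. Of 21 condensin and cohesin genes 12 were higher and 1 lower. The condensin genes Ncapg (11.9-fold) and Smc2 (11.4-fold) led, and Esco1, a cohesin acetyltransferase, was 2.09-fold lower (333 in c-Kit+ high and 695 in c-Kit- low), whereas Esco2, its S phase relative, was higher (120.2 in c-Kit+ high and a floor-level signal in c-Kit- low, at least 7.87-fold). The marker of cycling cells Mki67 was bright on every array, at 4510.1 in c-Kit+ high and 1153 in c-Kit- low, with c-Kit+ middle at 3654 and c-Kit- middle at 4107. Because these are bulk samples, fewer cells of a type and less RNA per cell cannot be told apart, here and for every list below.

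**Figure D2:**
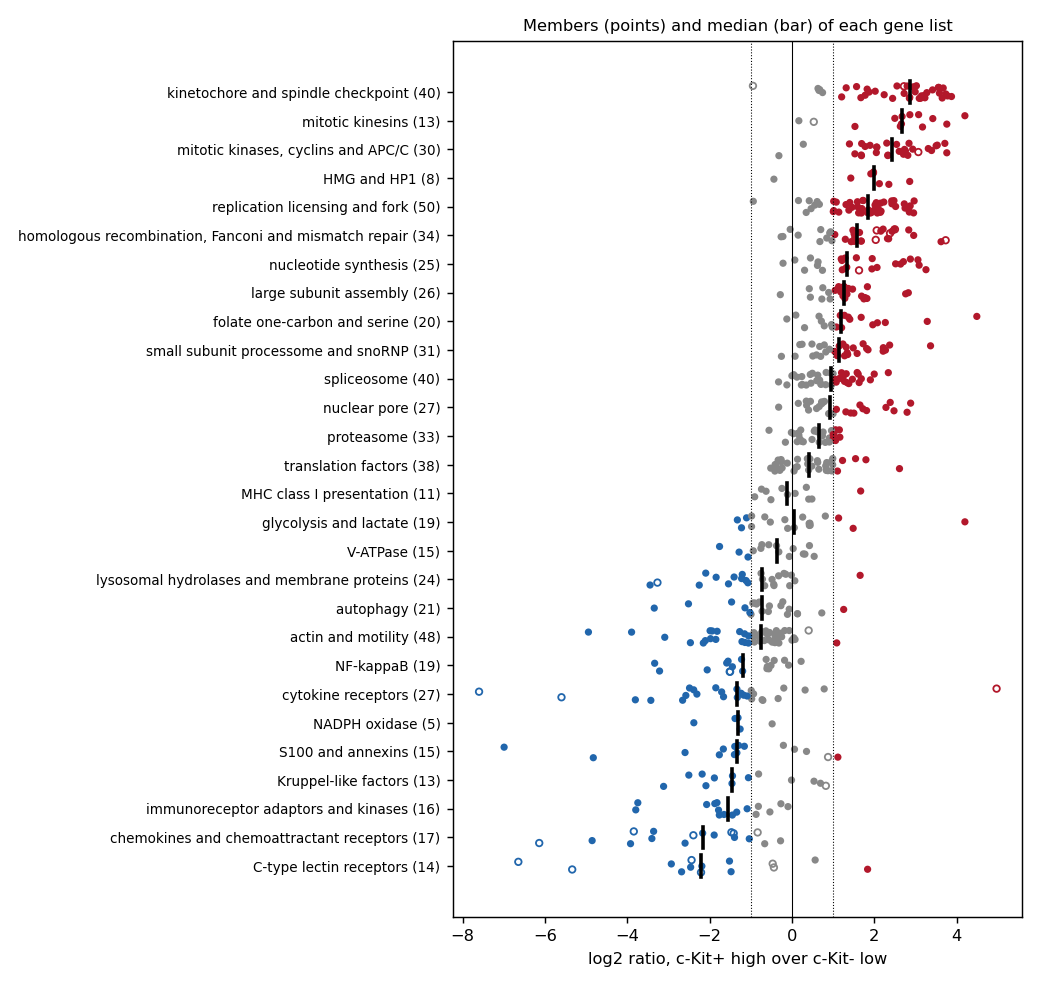
Log2 ratio of c-Kit+ high over c-Kit- low (x) for the measured members (points, number in brackets) of 28 gene lists, with the list median as a black bar; red is at least 2-fold higher, blue at least 2-fold lower and open circles are bounds. Medians run from 2.86 for the kinetochore list at the top to -2.20 for C-type lectin receptors at the bottom.

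Promoters of these genes were searched for the CHR element, to which the DREAM and MuvB complexes bind in genes of mitosis, and whose letters are TTTGAA. Promoters, from 250 bases before to 50 after the start, were those of RefSeq on GRCm38.p6, found for 9213 of the 11278 measured genes, and each motif was looked for on both strands. Of 69 promoters of the 3 mitosis lists 39 held the letters (56.5%), against 11.97% of promoters of all measured genes, 17.8% of genes at least 2-fold higher and 10.1% of those at least 2-fold lower. Among genes at least 8-fold higher the share was 33.3% of 78. In the 250 bases before the start alone it was 27.5% for the mitosis lists and 10.6% for all measured genes, and the other matches lay at or after the start. The CCAAT box (CCAAT), which often accompanies it, was in 69.6% of the mitosis promoters and 39.1% of all. The promoters of the 3 members of largest ratio with a match within 150 bases before the start are printed because they carry the element, in capitals and read on either strand; each is those 150 bases, 5' to 3' on the strand of the gene. Members of larger ratio whose match lies elsewhere in the window, such as Spc25, are not shown.
Kif11 (chr19:37376232-37376381, plus strand): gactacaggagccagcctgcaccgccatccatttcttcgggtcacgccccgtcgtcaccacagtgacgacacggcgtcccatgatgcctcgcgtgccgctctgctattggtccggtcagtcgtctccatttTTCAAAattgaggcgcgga
Cdk1 (chr10:69352913-69353062, minus strand): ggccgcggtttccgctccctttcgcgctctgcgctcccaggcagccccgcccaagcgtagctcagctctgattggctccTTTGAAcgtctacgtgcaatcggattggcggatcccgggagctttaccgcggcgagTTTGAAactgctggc
Ect2 (chr3:27153879-27154028, minus strand): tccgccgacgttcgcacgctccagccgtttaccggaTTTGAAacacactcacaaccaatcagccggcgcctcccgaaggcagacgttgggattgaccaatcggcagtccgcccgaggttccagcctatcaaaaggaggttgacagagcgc

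The match in the Kif11 promoter begins 19 bases before the start, those in Cdk1 71 and 15 bases before it, and that in Ect2 114 bases before it. Cdk1, the kinase that starts mitosis, read 1478 in c-Kit+ high and 109 in c-Kit- low, with c-Kit+ middle at 716 and c-Kit- middle at 817, a 13.6-fold difference. Ect2, a regulator of cytokinesis, read 949 in c-Kit+ high and 83.7 in c-Kit- low, with c-Kit+ middle at 704 and c-Kit- middle at 449, and was 11.3-fold higher. Kif11, the kinesin that pushes spindle poles apart, was the mitotic kinesin with the largest ratio, and its second probe set gave 14.7-fold against 18.4-fold for the first. A match is a description of letters and not a measurement of binding.

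DNA replication genes differed in the same direction and by less. Of 50 measured genes of licensing and the replication fork 42 were at least 2-fold higher and none lower (median 1.84). Rfc4, a subunit of the clamp loader, read 601 in c-Kit+ high and 76.8 in c-Kit- low, with c-Kit+ middle at 475 and c-Kit- middle at 406, and was 7.82-fold higher (9.47-fold by the second probe set). Prim1, the primase that starts each new strand, read 1159.6 in c-Kit+ high and 161 in c-Kit- low, with c-Kit+ middle at 1113 and c-Kit- middle at 735. Pcna, the sliding clamp, and Mcm7, a subunit of the replicative helicase, were among the brightest genes past 2-fold, with 4193 in c-Kit+ high and 1365 in c-Kit- low for Pcna (3.07-fold) and 4966 in c-Kit+ high and 1904 in c-Kit- low for Mcm7 (2.61-fold). E2F factors drive this class of gene, and an E2F motif (TTTCCCGC, TTTCGCGC, TTTGCCGC or TTTGGCGC) was in 15 of 41 promoters of the replication list (36.6%), against 4.31% of all measured genes, 7.89% of those higher and 2.42% of those lower. In the 250 bases before the start alone these shares were 22.0% for the replication list and 3.63% for all. Shown are the promoters of the 3 members of largest ratio with a match within 150 bases before the start, the motif in capitals on either strand.
Rfc3 (chr5:151651209-151651358, minus strand): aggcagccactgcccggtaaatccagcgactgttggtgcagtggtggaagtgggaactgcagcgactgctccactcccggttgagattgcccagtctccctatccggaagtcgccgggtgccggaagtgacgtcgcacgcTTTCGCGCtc
Cdc6 (chr11:98908001-98908150, plus strand): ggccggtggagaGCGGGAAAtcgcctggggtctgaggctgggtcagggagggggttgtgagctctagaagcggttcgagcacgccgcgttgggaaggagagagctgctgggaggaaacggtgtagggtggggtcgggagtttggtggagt
Pola1 (chrX:93632156-93632305, minus strand): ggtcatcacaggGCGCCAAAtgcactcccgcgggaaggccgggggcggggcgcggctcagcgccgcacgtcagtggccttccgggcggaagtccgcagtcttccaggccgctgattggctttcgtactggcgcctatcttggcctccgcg

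Cdc6, which loads the helicase at origins, was 6.72-fold higher (451 in c-Kit+ high and 67.2 in c-Kit- low), Rfc3, another clamp loader subunit, 7.13-fold (189 in c-Kit+ high and 26.5 in c-Kit- low), and Pola1, the catalytic subunit of polymerase alpha, 5.38-fold (427 in c-Kit+ high and 79.3 in c-Kit- low). Repair genes split by pathway. Of 34 measured genes of homologous recombination, the Fanconi pathway and mismatch repair 24 were higher and none lower (median 1.58), whereas of 15 genes of end joining and base excision 4 were higher and 2 lower (median 0.44). Exo1, a nuclease that resects DNA ends, read 203 in c-Kit+ high and a floor-level signal in c-Kit- low (at least 13.3-fold). Rad51b, Rad54b, Brip1 and Fancm of the same list were also at the floor in c-Kit- low, and like Exo1 could only be higher. Fignl1, an ATPase of recombination, was 14.15-fold higher by its brightest probe set and 1.63-fold by the second, and Psmc3ip, a cofactor of strand exchange, 12.6-fold and 9.3-fold. Within base excision, Neil3, a glycosylase of dividing cells, was 9.23-fold higher and Ung, which removes uracil, 6.24-fold, while Polb, the gap-filling polymerase, was 2.52-fold lower (241 in c-Kit+ high and 609 in c-Kit- low).

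Supply of nucleotides and one-carbon units went the same way. Of 25 nucleotide synthesis genes 18 were higher and none lower (median 1.33), and of 20 genes of folate, one-carbon and serine metabolism 12 were higher and none lower (median 1.19). Dut, which removes dUTP, read 1749 in c-Kit+ high and 206 in c-Kit- low, with c-Kit+ middle at 1399 and c-Kit- middle at 744 (8.51-fold). Tk1, the thymidine kinase of S phase, was 7.34-fold higher. Phgdh, the first enzyme of serine synthesis, read 1483 in c-Kit+ high and 152 in c-Kit- low, with c-Kit+ middle at 1166 and c-Kit- middle at 496, and its 9.76-fold difference was 11.5-fold by the second probe set. The mitochondrial Shmt2 was 4.82-fold higher and Ahcy, which clears S-adenosylhomocysteine, 4.21-fold. Among 15 amino acid transporters 3 were higher and 4 lower, beside 16.1% higher and 13.6% lower of all measured genes, so their higher share is near that of all. The plasma membrane carriers Slc7a5 (289.9 in c-Kit+ high and 32.5 in c-Kit- low, 8.91-fold), Slc7a6 (3.08-fold) and Slc7a1 (2.44-fold) were the higher ones, and the lysosomal peptide and histidine carriers Slc15a3 (a floor-level signal in c-Kit+ high and 391 in c-Kit- low, at least 25.6-fold) and Slc15a4 (2.98-fold) were among the lower ones, with Slc43a2 (7.51-fold) and Slc7a7 (6.79-fold).

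Ribosome assembly genes, the class of nucleostemin itself, were higher by smaller amounts. Of 26 genes of large subunit assembly 19 were higher and none lower (median 1.27). Gnl3 had the largest ratio of this list, but the cells were sorted on a reporter of its promoter, so its rank is no separate evidence. Of 31 genes of the small subunit processome and snoRNPs 19 were higher and none lower (median 1.15). Dkc1, the pseudouridine synthase dyskerin, read 1172 in c-Kit+ high and 226 in c-Kit- low, with c-Kit+ middle at 961 and c-Kit- middle at 462 (5.18-fold), and Nop56, a core snoRNP protein, 1403 in c-Kit+ high and 291 in c-Kit- low, with c-Kit+ middle at 1001 and c-Kit- middle at 849 (4.83-fold). Both rise over the 4 fractions in their order; in Dkc1 the c-Kit- middle array lies midway on the log scale between its neighbours, whereas in Nop56 it lies close to c-Kit+ middle. The abundant nucleolar proteins Npm1 (6965 in c-Kit+ high and 2645 in c-Kit- low, 2.63-fold) and Ncl (4219 in c-Kit+ high and 1368 in c-Kit- low, 3.08-fold) were among the brightest genes past 2-fold. An E-box (CACGTG), the letters that Myc and Max bind, was in 13 of 46 promoters of these lists (28.3%), against 10.3% of all measured genes. In the 250 bases before the start alone it was in 5 of 46 (10.9%), against 8.51% of all. Myc was 5.62-fold higher (866 in c-Kit+ high and 154 in c-Kit- low, with c-Kit+ middle at 960.2 and c-Kit- middle at 409) and its partner Max 3.53-fold (77.8 in c-Kit+ high and 22.1 in c-Kit- low). The promoter of Gnl3 is shown because a region of the nucleostemin promoter drives the sorted reporter; its last 150 bases before the start hold none of the 9 motifs searched, so it is in lower case throughout.
Gnl3 (chr14:31019132-31019281, minus strand): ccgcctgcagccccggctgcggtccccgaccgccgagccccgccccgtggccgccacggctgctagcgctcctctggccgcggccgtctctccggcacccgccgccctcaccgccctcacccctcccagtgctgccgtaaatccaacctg

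Other lists of growth machinery had few or no lower members and medians above the 0.09 of all genes, mostly below 2-fold; for comparison, 16.1% of all measured genes were higher. Of 40 spliceosome genes 18 were higher (median 0.95), of 27 nuclear pore genes 12 (median 0.92), of 26 import and export receptors 10 (median 0.74), of 33 mitochondrial import and chaperone genes 11 (median 0.76), of 33 proteasome genes 8 (median 0.66) and of 38 translation factors 5 (median 0.43), with none lower in any of them; the share for translation factors (13.2%) is under that of all genes. Nup43, a scaffold nucleoporin that also sits at kinetochores, read 235 in c-Kit+ high and 31.8 in c-Kit- low (7.38-fold). Ranbp1, a regulator of the Ran cycle, read 1599 in c-Kit+ high and 345 in c-Kit- low (4.63-fold), Snrpf, an Sm core protein, 2054 in c-Kit+ high and 406 in c-Kit- low (5.07-fold), and Timm8a1, a chaperone of mitochondrial import, 1277 in c-Kit+ high and 165 in c-Kit- low (7.76-fold). Hspd1, the mitochondrial chaperonin, was 3.98-fold higher and the cytosolic chaperonin subunit Cct3 3.04-fold. RNA polymerase I and its factors had 3 of 15 higher, RNA polymerase III and its factors 4 of 18 and RNA polymerase II subunits 2 of 10, with none lower, shares near that of all genes, and the median of the polymerase III list changes sign with the processing.

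Lists of chromatin genes differed from each other. Of 8 measured HMG and HP1 genes 7 were higher and none lower (median 1.98), led by Hmgn5, a nucleosome-binding protein (1067 in c-Kit+ high and 147 in c-Kit- low, 7.26-fold). Of 8 DNA methylation genes 4 were higher and 1 lower (median 1.12). Uhrf1, which recruits the maintenance methyltransferase to new DNA, was 7.37-fold higher (688 in c-Kit+ high and 93.4 in c-Kit- low, with c-Kit+ middle at 741 and c-Kit- middle at 241), Dnmt1 itself 2.66-fold, the methyltransferase gene Dnmt3b 3.08-fold, and the helicase gene Hells 7.44-fold. Tet2, which oxidizes methylcytosine and is often mutated in human myeloid disease, was 2.68-fold lower (418 in c-Kit+ high and 1119 in c-Kit- low, with c-Kit+ middle at 557 and c-Kit- middle at 699), although its second probe set gave 1.14-fold. Among 20 Polycomb genes 6 were higher, with Ezh2, the H3K27 methyltransferase, at 1304 in c-Kit+ high and 262 in c-Kit- low (4.97-fold), and 1 was lower, Cbx7, a reader of that mark (28.3 in c-Kit+ high and 109.7 in c-Kit- low, 3.88-fold). The second deposited table lacks this probe set of Cbx7, and the probe set it holds gave the opposite direction, so the direction of Cbx7 is uncertain.

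Some single genes of myeloid cells were higher in c-Kit+ high, and no list of immature myeloid genes was counted. Gfi1, a repressor needed for granulocyte formation, read 1032 in c-Kit+ high and 64.6 in c-Kit- low, with c-Kit+ middle at 935 and c-Kit- middle at 212, so both c-Kit+ arrays stand well above both c-Kit- arrays. Trem3, a receptor of the TREM family, was 4.74-fold higher (1569 in c-Kit+ high and 331 in c-Kit- low, with c-Kit+ middle at 1284 and c-Kit- middle at 852), the one member of the paired receptor list that was. Hdc, which makes histamine and is a gene of basophils, mast cells and immature myeloid cells, read 224 in c-Kit+ high and a floor-level signal in c-Kit- low, with c-Kit+ middle at 153 and c-Kit- middle at the floor (at least 14.7-fold). Of 9 measured mast cell, basophil and eosinophil markers 4 were higher and 1 lower. Among the higher ones Hdc and Prg3 passed the floor through c-Kit+ high and not c-Kit- low, so they could only be higher. Gata2 was 2.63-fold higher (142 in c-Kit+ high and 53.8 in c-Kit- low), while Cpa3, a mast cell protease, was 2.51-fold lower (68.8 in c-Kit+ high and 173 in c-Kit- low, with c-Kit+ middle at 228 and c-Kit- middle at 39.6).

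Of 35 measured haematopoietic transcription factors 9 were higher and 11 lower, beside 16.1% and 13.6% of all measured genes. Besides Gfi1, Myc, Max and Gata2, the higher ones were Myb, which sustains immature blood cells (3239.9 in c-Kit+ high and 1104 in c-Kit- low, with c-Kit+ middle at 3921 and c-Kit- middle at 1481, 2.94-fold), Sox4 (3.9-fold), Hoxa5 (3.16-fold), Erg (2.94-fold) and Fli1 (2.21-fold). Both Myb and Sox4 were highest in c-Kit+ middle. The lower ones included Irf5, a driver of inflammatory macrophage genes, at 153 in c-Kit+ high and 1416 in c-Kit- low (9.23-fold, but 1.12-fold by its second probe set), Bcl6, a repressor, at 77.1 in c-Kit+ high and 409 in c-Kit- low (5.3-fold, and at least 1.04-fold by its second, which lay at the floor in c-Kit+ high), and Irf4 at the floor in c-Kit+ high and 136 in c-Kit- low (at least 8.93-fold). Id2, an inhibitor of E proteins, was 14.9-fold lower (164 in c-Kit+ high and 2438 in c-Kit- low, with c-Kit+ middle at 145 and c-Kit- middle at 1259.8), whereas Id1 was 2.23-fold higher (74.7 in c-Kit+ high and 33.5 in c-Kit- low).

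Several of the largest ratios belong to genes of other roles. Egln3, an oxygen-sensing prolyl hydroxylase, read 606 in c-Kit+ high and 45.5 in c-Kit- low, with c-Kit+ middle at 508 and c-Kit- middle at 71.3, and was 13.3-fold higher by its brightest probe set and 2.21-fold by the second. Tfpi, the inhibitor of tissue factor, read 428 in c-Kit+ high and 32.5 in c-Kit- low, with c-Kit+ middle at 272 and c-Kit- middle at 126, and both of its probe sets gave similar sizes (13.2-fold and at least 15.9-fold). Ncam1, a neural adhesion molecule known from a subset of human leukaemias, read 332 in c-Kit+ high and a floor-level signal in c-Kit- low, with c-Kit+ middle at 212 and c-Kit- middle at 174 (at least 21.7-fold, and at least 4.02-fold by the second probe set). These 3 genes differ in shape, since Egln3 parts the c-Kit+ from the c-Kit- arrays and Ncam1 parts c-Kit- low from the rest. Fnbp1l, an adaptor of membrane bending and actin, was 16.2-fold higher, Serf1 16.5-fold (5.95-fold by its second probe set), Rapgef3, a cAMP-activated exchange factor, at least 10.96-fold (4.13-fold by its second), the potassium channel gene Kcnq5 at least 11.1-fold, and Far2, a fatty acyl-CoA reductase, at least 10.4-fold.

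At the other end, surface receptors of mature myeloid cells were among the lists with the lowest medians. Of 14 measured C-type lectin receptors 10 were lower in c-Kit+ high and 1 higher (median -2.20), and of 19 paired and inhibitory immunoglobulin-like receptors 12 were lower and 1 higher (median -1.46). These counts and medians, and those of the lists below, include members at the floor in c-Kit+ high, which could only be lower. Clec4n, which encodes the fungal receptor dectin-2, was at the floor in c-Kit+ high and 617 in c-Kit- low, with c-Kit+ middle at the floor and c-Kit- middle at 163 (at least 40.4-fold). Cd300lf, an inhibitory receptor of myeloid cells, read 29.3 in c-Kit+ high and 1034 in c-Kit- low, with c-Kit+ middle at 36.1 and c-Kit- middle at 492 (35.3-fold), and Cd33, a sialic acid receptor, 109.9 in c-Kit+ high and 1540.2 in c-Kit- low (14.02-fold). In all 3 the c-Kit+ arrays lie together far below the c-Kit- arrays. Cd69, an activation marker in the lectin family, was the member higher in c-Kit+ high (696 in c-Kit+ high and 195 in c-Kit- low, 3.57-fold). The adaptors and kinases through which such receptors signal had 11 of 16 lower and none higher (median -1.55), among them Pik3r5, a regulator of PI3 kinase gamma (13.4-fold), and Fcer1g, the common gamma chain (651 in c-Kit+ high and 2737 in c-Kit- low, 4.2-fold).

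Sensors of microbes and of chemoattractants were lower too. Of 25 Toll-like receptor and inflammasome genes 13 were lower and 1 higher, with Cd14, the endotoxin co-receptor, at 213 in c-Kit+ high and 1892 in c-Kit- low (8.9-fold) and Tlr2, a lipoprotein receptor, at 144 in c-Kit+ high and 1188 in c-Kit- low (8.25-fold); the one higher was Tlr9 (37.9 in c-Kit+ high and 15.6 in c-Kit- low), close to the floor. Of 17 chemokines and chemoattractant receptors 14 were lower and none higher (median -2.17). Ccl6, a chemokine of myeloid cells, read 38.6 in c-Kit+ high and 1114 in c-Kit- low, with c-Kit+ middle at 43.8 and c-Kit- middle at 365, a 28.9-fold difference that was 20.4-fold by the second probe set. Ccr2, the receptor that brings monocytes out of the marrow, read 549.6 in c-Kit+ high and 2469.8 in c-Kit- low, with c-Kit+ middle at 699 and c-Kit- middle at 1718 (4.49-fold). Of 27 cytokine receptors 17 were lower and 1, Kit, on whose product the cells were sorted, higher (median -1.33). Il13ra1, a chain of the IL-4 and IL-13 receptors, was at the floor in c-Kit+ high and 739 in c-Kit- low (at least 48.4-fold, and at least 44.4-fold by the second probe set), and Csf1r, the M-CSF receptor that directs monocyte formation, at 1388 in c-Kit+ high and 6871 in c-Kit- low, with c-Kit+ middle at 2112 and c-Kit- middle at 5209.9 (4.95-fold). Il10ra, at 13.95-fold lower by its brightest probe set, was at least 1.78-fold higher by the second, so its direction is uncertain. Of 13 Fc and complement genes 6 were lower and none higher, and of 13 genes of leukotrienes, prostaglandins and platelet-activating factor 5 were lower and 1 higher.

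**Figure D3:**
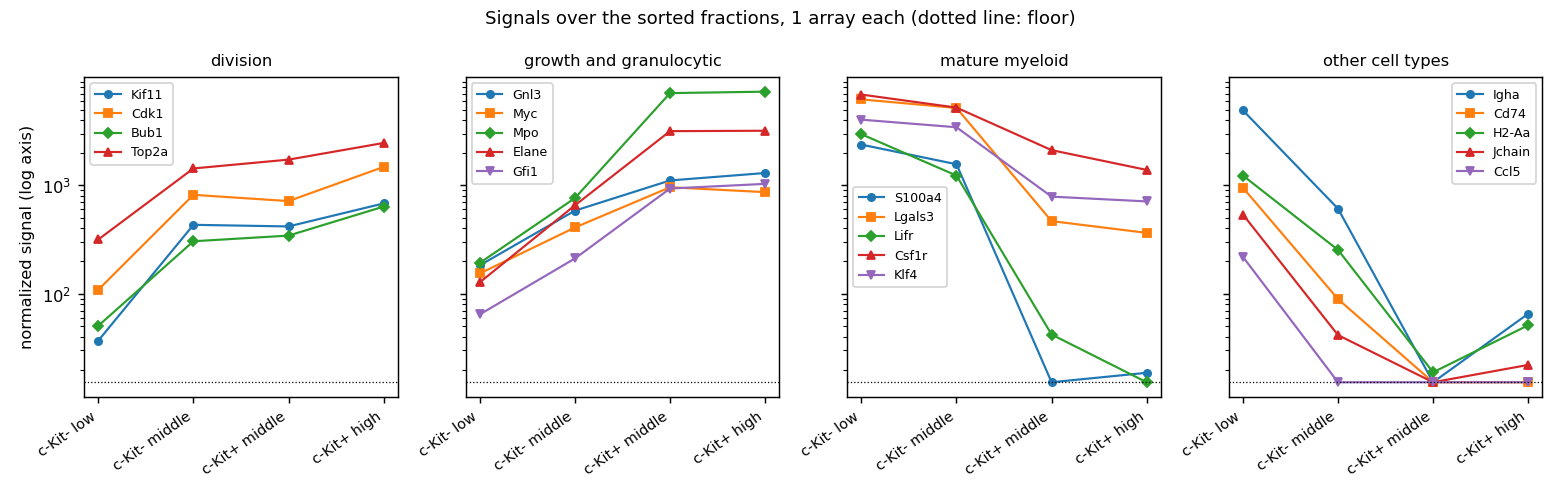
Normalized signal (y, log axis) of single genes over the 4 sorted fractions (x), 1 array each, with the floor of 15.3 as a dotted line. Division genes are low in c-Kit- low alone, mature myeloid genes part the c-Kit- from the c-Kit+ arrays, and Igha, Cd74, H2-Aa, Jchain and Ccl5 are highest in c-Kit- low.

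Genes of motility, matrix and adhesion shared this direction. Of 15 S100 and annexin genes 10 were lower and 1, Anxa3, higher (2108 in c-Kit+ high and 973 in c-Kit- low, 2.17-fold). S100a6, a calcium-binding protein, read 59.6 in c-Kit+ high and 1687 in c-Kit- low, with c-Kit+ middle at 45.95 and c-Kit- middle at 1341 (28.3-fold), and S100a10, a partner of annexin A2, 753 in c-Kit+ high and 2554 in c-Kit- low, with c-Kit+ middle at 759.9 and c-Kit- middle at 3945 (3.39-fold). Lgals3, the lectin galectin-3, was one of the brightest genes of c-Kit- low, at 364 in c-Kit+ high and 6203 in c-Kit- low, with c-Kit+ middle at 468 and c-Kit- middle at 5173 (17.02-fold). Of 48 actin and motility genes 17 were lower and 1 higher (median -0.75), led by Lsp1, an actin-binding protein of leucocytes (132 in c-Kit+ high and 4047 in c-Kit- low, 30.7-fold), and Gsn, the severing protein gelsolin (65.1 in c-Kit+ high and 968 in c-Kit- low, 14.9-fold). Rdx, the membrane linker radixin, was 2.13-fold higher. Of 25 integrin and adhesion genes 11 were lower and 2 higher, with Itgb7, an integrin beta chain, at 131 in c-Kit+ high and 3009.9 in c-Kit- low (22.9-fold) and the tetraspanin gene Cd81 3.02-fold higher. The matrix genes Vcan, versican (a floor-level signal in c-Kit+ high and 824 in c-Kit- low, at least 53.9-fold), Tgfbi (141 in c-Kit+ high and 4418 in c-Kit- low, 31.3-fold) and Fn1, fibronectin (1283 in c-Kit+ high and 7706 in c-Kit- low, 6.01-fold), were lower. Nrp1, a co-receptor for semaphorins and VEGF, read 21.6 in c-Kit+ high and 780.0 in c-Kit- low, with c-Kit+ middle at 25.02 and c-Kit- middle at 438, and was 36.2-fold lower (at least 36.2-fold by the second probe set).

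Killing, digestion and lipid handling were lower in part. Of 5 NADPH oxidase genes 4 were lower (median -1.31), with Cybb, the catalytic subunit, at 920.0 in c-Kit+ high and 4796 in c-Kit- low, with c-Kit+ middle at 1463 and c-Kit- middle at 3015 (5.21-fold). Of 24 lysosomal genes 11 were lower and 1 higher (median -0.73), such as Psap, the precursor of saposins (1565 in c-Kit+ high and 6677 in c-Kit- low, 4.27-fold), whereas the proton pump that acidifies lysosomes had 3 of 15 lower (20%, against 13.6% of all, median -0.37). The iron transporter of phagosomes Slc11a1 was 17.8-fold lower (22.9 in c-Kit+ high and 409.6 in c-Kit- low, with c-Kit+ middle at 22.7 and c-Kit- middle at 160.0), and Tfrc, the transferrin receptor, was 2.96-fold higher (809 in c-Kit+ high and 273 in c-Kit- low). Of 11 genes of cholesterol efflux and trafficking 7 were lower and none higher (median -1.07), including Lpl, lipoprotein lipase (156 in c-Kit+ high and 3484 in c-Kit- low, with c-Kit+ middle at 213 and c-Kit- middle at 3409, 22.4-fold). Of 22 genes of cholesterol synthesis and uptake 2 were higher and 1 lower (median 0.34), shares under those of all measured genes (16.1% and 13.6%). Lyz2, the lysozyme of myeloid cells, read 1636 in c-Kit+ high and 8109 in c-Kit- low (4.96-fold) and its near-identical copy Lyz1 4433 in c-Kit+ high and 9202 in c-Kit- low (2.08-fold), and probe sets of this pair may read both genes.

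Several lists of transcription factors and their inhibitors had no higher members. Of 13 Kruppel-like factors 8 were lower and none higher (median -1.44). Klf3, a repressor, read 72.9 in c-Kit+ high and 633 in c-Kit- low, with c-Kit+ middle at 138 and c-Kit- middle at 442 (8.68-fold, 10.1-fold by the second probe set), Klf13 904 in c-Kit+ high and 4098 in c-Kit- low (4.53-fold) and Klf9 673 in c-Kit+ high and 2862 in c-Kit- low (4.25-fold). Of 19 NF-kappaB genes 10 were lower and none higher (median -1.20), with the nuclear inhibitors Bcl3 at 30.4 in c-Kit+ high and 307 in c-Kit- low (10.1-fold) and Nfkbiz at 80.8 in c-Kit+ high and 749.7 in c-Kit- low (9.28-fold). Of 16 AP-1, Maf and Egr genes 9 were lower and none higher (median -1.13), among them Fosl2 (4.62-fold) and Maf (a floor-level signal in c-Kit+ high and 78.7 in c-Kit- low). In promoters of the mature myeloid lists the PU.1 letters (GAGGAAGT) were in 14 of 99 (14.1%) and the C/EBP letters (TTGCNNAA) in 18 (18.2%), against 3.29% and 8.01% of all measured genes. These promoters had a median GC content of 51%, against 60.7% for all, and the part of base composition in the shares was not tested. AP-1 letters (TGANTCA) were in 9 of them (9.09%), against 5.08% of all, and the ISRE of interferon genes in 10 (10.1%), against 3.03% of all. The NRF1 motif was in none of them, against 2.17% of all. CHR letters, described above for the mitosis lists, were in some of these promoters too, such as those of Cybb and Nlrp3.

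Of 21 measured BCL2 family and caspase genes 6 were lower in c-Kit+ high and none higher (median -0.39), beside 13.6% lower and 16.1% higher of all measured genes. The 6 include genes that promote cell death and genes that block it. Bcl2l11, the BH3-only activator Bim, read 161 in c-Kit+ high and 1335 in c-Kit- low, with c-Kit+ middle at 552 and c-Kit- middle at 549 (8.3-fold, 3.22-fold by the second probe set). Bmf, another BH3-only gene, read 27.9 in c-Kit+ high and 489 in c-Kit- low, with c-Kit+ middle at 83.3 and c-Kit- middle at 144 (17.5-fold, 2.16-fold by the second probe set), and Trp53inp1, a p53 target of stress responses, 145 in c-Kit+ high and 1139.8 in c-Kit- low, with c-Kit+ middle at 347 and c-Kit- middle at 604 (7.88-fold). In these genes c-Kit+ high lies below c-Kit+ middle as well as below the c-Kit- arrays. Mcl1, the survival factor of myeloid cells, was 2.45-fold lower as well (2358 in c-Kit+ high and 5769.9 in c-Kit- low), and Xiap, an inhibitor of caspases, 2.06-fold. Other genes that promote death lay within 2-fold by their brightest probe set, such as Bid (1.03-fold), Casp8 (1.09-fold) and Bbc3, which encodes Puma (1.67-fold). The second probe set of Bid gave 2.31-fold higher. Of 11 genes of p53 and its targets 4 were lower, including Cdkn1a, the p21 inhibitor (72.8 in c-Kit+ high and 251 in c-Kit- low, with c-Kit+ middle at 63.8 and c-Kit- middle at 346, 3.44-fold), and 1, Aen, was higher by its brightest probe set (2.2-fold) and 1.33-fold lower by the second, so its direction is uncertain. Of 21 autophagy genes 5 were lower and 1 higher, beside the same shares of all genes. Sqstm1, the cargo receptor p62, read 83.8 in c-Kit+ high and 851 in c-Kit- low, with c-Kit+ middle at 172 and c-Kit- middle at 302 (10.2-fold, 2.22-fold by the second probe set).

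Genes of energy metabolism are given beside all measured genes, of which 16.1% were higher and 13.6% lower. Of 19 glycolysis and lactate genes 3 were higher and 3 lower, shares near those of all genes. Their median was 0.06, and its sign changes with the processing. Ldha, which forms lactate, was 2.8-fold higher (3435 in c-Kit+ high and 1226 in c-Kit- low) and Pfkp, a phosphofructokinase, 2.51-fold lower (631 in c-Kit+ high and 1581 in c-Kit- low). Of 22 genes of pyruvate and the TCA cycle 4 were higher and none lower (median 0.53), with Idh3a at 959.8 in c-Kit+ high and 267 in c-Kit- low (3.59-fold). Fatty acid synthesis had 0 of 10 genes past 2-fold in either direction, and fatty acid oxidation 3 of 14 higher, among them the electron carriers Etfa (2.65-fold) and Etfb (2.98-fold), and 1 lower, Cpt1a, which brings fatty acids into mitochondria (2.43-fold). MHC class I genes, in contrast to class II, had 0 of 11 lower and 1, the trimming peptidase gene Erap1, higher (3.18-fold), and H2-K1 read 3498 in c-Kit+ high and 4982 in c-Kit- low.

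Markers of lymphoid and dendritic cells differed in their number above the floor and in their summed signal, which in each of these lists was highest in c-Kit- low, though single markers were highest elsewhere (Ighm in c-Kit- middle, Zap70 in c-Kit+ middle and Cd8a in c-Kit+ high). The array reads 14 markers of dendritic cells and MHC class II, of which 4 exceeded a floor-level signal in c-Kit+ high and 12 in c-Kit- low, with a summed signal over those above the floor on either array of 1172 in c-Kit+ high and 5496 in c-Kit- low. Of these 12, 8 were at least 2-fold lower, but 8 of the 12 passed the floor through c-Kit- low alone and could only be lower. H2-Eb1, a class II chain, was at the floor in c-Kit+ high and 623 in c-Kit- low, with c-Kit+ middle at the floor and c-Kit- middle at 82.95. It also reads 15 B and plasma cell markers, with 5 above the floor in c-Kit+ high and 10 in c-Kit- low and a summed signal of 4367 in c-Kit+ high and 11815 in c-Kit- low. Igha held most of this difference, and Xbp1 and Ighm most of the sum in c-Kit+ high. At least 2-fold lower were 4, and 5 of the 10 passed through c-Kit- low alone. Igha, the IgA heavy chain of plasma cells, read 65.4 in c-Kit+ high and 4915 in c-Kit- low, with c-Kit+ middle at the floor and c-Kit- middle at 609, whereas Ms4a1 and Cd79a, which define B cells, were at the floor on both arrays. The array reads 19 T and NK cell markers, with 5 above the floor in c-Kit+ high and 12 in c-Kit- low and a summed signal of 292 in c-Kit+ high and 638 in c-Kit- low, and Cd3d, Cd3e and Cd3g were at the floor on both arrays. Ccl5, at the floor in c-Kit+ high and 219 in c-Kit- low, held most of the difference between these sums. A marker at the floor on 1 array is counted there as 15.3 in each sum. At least 2-fold lower were 5, and 7 of the 12 passed through c-Kit- low alone, several close to the floor. The median of the T and NK list was -0.70 here and 0.20 in the second deposited table, which holds few of the genes at the floor on 1 array. Of 5 measured erythroid markers 3 were lower, each of them at the floor in c-Kit+ high, of 5 megakaryocyte and platelet markers 1 and of 6 stroma and endothelium markers 0, with none higher. The part of such cells in the lower expression of the myeloid and class II lists was not tested.

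The end-to-end ratio of each gene was divided into its steps along the sort, which sum to it and so are no independent evidence. Of the 1813 higher genes, 1049 (57.9%) had over 50% of the log2 ratio within the c-Kit- cells, 426 (23.5%) at the c-Kit boundary of both middle gates, and 88 (4.85%) within the c-Kit+ cells. Of the 1539 lower genes these were 594 (38.6%), 563 (36.6%) and 62 (4.03%). Under the authors' scaling the first of these shares was 36.3% of the higher and 60.3% of the lower genes, so which side is more concentrated in the first step depends on the scaling. At 4-fold it was 74.8% of higher and 22.8% of lower genes. Signals were ordered over all 4 arrays in 1135 of the higher genes (62.6%) and 1079 of the lower ones (70.1%), and c-Kit+ middle lay beyond c-Kit+ high in 358 (19.7%) and 305 (19.8%).

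Lists differed in which step held their ratio. The kinetochore list had median steps of 2.00 from c-Kit- low to c-Kit- middle, 0.08 to c-Kit+ middle and 0.63 to c-Kit+ high, a median that moved little between the middle arrays. Under the authors' scaling these steps were 1.65, 0.23 and 0.69. Large subunit assembly was spread over the first steps, with 0.53, 0.61 and 0.13 in the same order, or 0.21, 0.78 and 0.16 under the authors' scaling. S100 and annexin genes had most of their ratio at the c-Kit step, with -0.19, -1.02 and 0.14, or -0.38, -0.86 and 0.18 under the authors' scaling. C-type lectin receptors had -0.70, -0.90 and 0.00, and under the authors' scaling -0.96, -0.76 and -0.03, so which of the first steps is larger depends on the scaling. Members at the floor on both c-Kit+ arrays, such as Clec4n, limit the last step of this list, and their step at the c-Kit boundary is a bound. MHC class II and dendritic cell markers had -1.53 in the first step and 0.00 in the others, where many members are at the floor on both arrays.

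**Figure D4:**
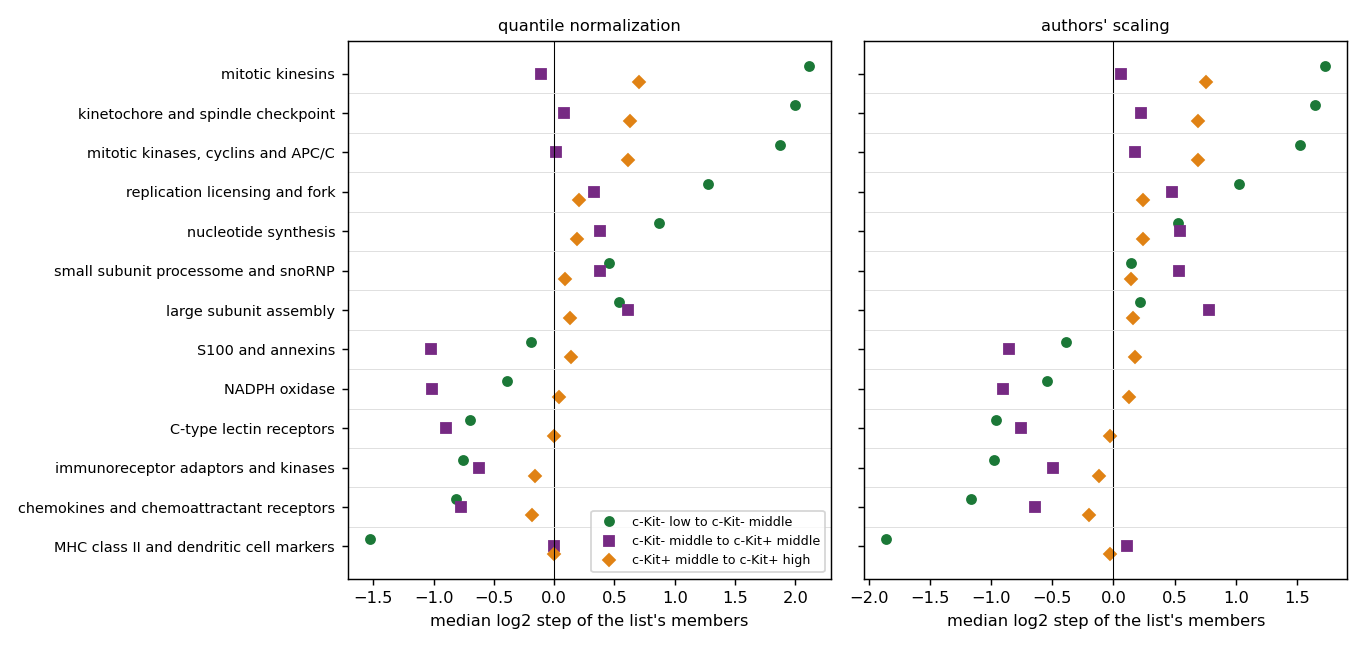
Median log2 step (x) between neighbouring fractions for the measured members of 13 gene lists (y), under quantile normalization (left) and the authors' scaling (right); circles are c-Kit- low to c-Kit- middle, squares c-Kit- middle to c-Kit+ middle and diamonds c-Kit+ middle to c-Kit+ high. The mitosis lists have their largest step at c-Kit- low under both scalings, 2.00 and 1.65 for the kinetochore list.

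Repeat measurement is limited to genes that a further probe set also reads, and this takes in the error of probes but no difference between sorts, mice or arrays. Over 4364 genes with both probe sets above the floor on both arrays, the log2 ratio had an SD of 0.48 for 1 probe set. The second probe set had the same sign in 690 of 721 higher genes (95.7%) and 486 of 521 lower genes (93.3%), against 78.7% of all 4364. It was itself past 2-fold the same way in 454 of the higher and 333 of the lower genes. Among genes past 4-fold it had the same sign in 278 of 282. It was past 2-fold the opposite way in 5 genes, Bzw2, Ccnc, Fam172a, Msh3 and Nme1, all higher by the brightest probe set; they were named after their values were seen. A 2-fold difference equals about 2 of the SDs over all 4364 genes in size. The SD was larger among genes at least 2-fold higher (0.58) and lower (0.66), so the call of a single gene near the threshold is uncertain.

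**Figure D5:**
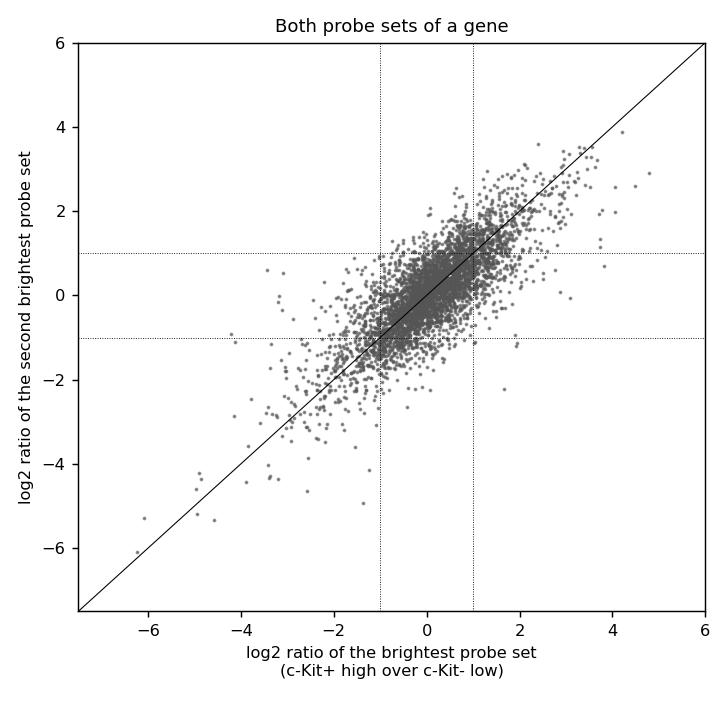
Log2 ratio of c-Kit+ high over c-Kit- low from the brightest (x) and the second brightest (y) probe set of each gene above the floor on both arrays; the solid line is equality and dotted lines mark 2-fold. Most genes past 2-fold lie in the quadrants of equal sign, and the SD of a single probe set over the 4364 genes is 0.48.

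The authors' second deposited table, which holds log2 values of 17419 probe sets, keeps unequal shares of the genes described here. It holds the brightest probe set of 75.4% of the measured genes, of 85.3% of the higher and of 73.0% of the lower ones. Of the 266 lower genes that were at the floor in c-Kit+ high it holds 10 (3.76%), and of the 77 genes at least 16-fold lower it holds 35. Of the 14 genes at least 16-fold higher it holds 10. A reading of that table alone would thus see fewer of the genes with the largest differences, mostly on the lower side.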

How the data were processed

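RNA of 4 sorted fractions was measured on 1 Affymetrix mouse array each. Tools named are R 3.0.2, MAS5 and GCOS 1.2, per the submitters' processing notes, and which of them gave which values is not stated there. As deposited, the first table is of linear intensity, a MAS5-type signal for each of 45101 probe sets. The other deposited table gives 17419 of them on a log2 scale, values that equal the log2 of the first plus 1 constant per array.

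Of the first table, 45037 probe sets that are not controls were quantile normalized over the 4 arrays (trimmed means as deposited differed by 21.5%), floored at the 50th percentile (15.3) and taken to log2. The platform annotation lists 34945 of them with 1 gene, 932 with several and 9160 with none listed, and 34741 were matched to symbols of the reference. Each gene was read from the brightest of its probe sets on average over the arrays. The log2 ratio is c-Kit+ high over c-Kit- low. A gene at the floor on 1 array has a lower bound and could only be higher on the other, and genes at the floor on both were left out. No test was run, since each group has 1 array. A planted set of bright genes, changed 4-fold with little added noise, was recovered in a test on simulated data. That test does not cover calls near 2-fold or near the floor.

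Genes named were Kit, Gnl3, Hoxa9 and Meis1; among the 25 highest and the 25 lowest ratios above the floor, the 12 brightest bounds each way and the 12 brightest genes past 2-fold each way; and from each list 2 to 4 members furthest in the direction of its median with those past 2-fold the other way. Predicted genes were passed over. A few others (Ptprc among the label checks, Ccr2, Cdc6, Rfc3, Pola1, H2-K1 and the second example of some lists) fall outside that rule or stand for a printed promoter or for both sides of a list, and were chosen with their values known. The members, lists and rules were all chosen with earlier results of these data known. Analyses used Python 3.11.15 with numpy 2.4.6, pandas 2.3.3 and matplotlib 3.10.9. Alternatives were the authors' scaling, quantile normalization of the 2 arrays alone, floors at the 25th and 75th percentile, the mean of all probe sets, the second deposited table, thresholds of 1.5-fold and 4-fold, and promoters of the 250 bases before the start.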

Additional observations from a re-analysis of the deposited data

How the results depend on the processing

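No paired analysis was possible because each group has 1 array. The count of genes at least 2-fold higher was 3075 for a floor of the 25th percentile, 1047 for the 75th, 3266 at a threshold of 1.5-fold and 421 at 4-fold. For genes lower by as much it was 2643 at the 25th percentile, 952 at the 75th, 2572 at 1.5-fold and 500 at 4-fold. These settings test different numbers of genes, 16040 at the lower floor and 7410 at the higher one, or change the threshold itself. With the authors' scaling 42.5% of genes past 2-fold were higher, the step from c-Kit- low to c-Kit- middle held over 50% of the ratio in 36.3% of higher and 60.3% of lower genes, and that from c-Kit- middle to c-Kit+ middle in 39.8% and 19.97%; the cause was not tested beyond the scaling itself. At 4-fold the first step did so in 74.8% of higher and 22.8% of lower genes and the second step in 49.2% of lower genes. At a floor of the 25th percentile the last step did so in 19.4% and 17.0%. In the 250 bases before the start alone, the shares of promoters with CHR, E2F and E-box letters were 27.5%, 22.0% and 10.9% for the mitosis, replication and ribosome assembly lists. In the second deposited table the median of T and NK cell markers was 0.20 and the log2 ratio of Cbx7 0.57, both turned. That table lacks the brightest probe set of Cbx7, so the value comes from another probe set of the gene. Among the measured T and NK cell markers it holds the brightest probe set of Cd8a alone, and the cause of the turned median was not tested. Of 410 list medians under an alternative, 397 moved by less than the SD of a single probe set, 12 by more, and 1 median of at least 0.5 in size, that of T and NK cells, turned. Of 69 lists 64 kept the sign of their median in each setting that was run; the others, with medians near 0 apart from T and NK cells, are ID and E proteins, RNA polymerase III, T and NK cells, glycolysis and lactate, and stroma. Of 2138 values of named genes, 1832 moved by less than that SD, 305 by more and 1 turned. Signals near the floor limit every fold against them, and 1 array per group limits the rest.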
